A study of Equus asinus with 2 samples.

Results

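Cholesterol and fatty acid synthesis genes were followed across the cell classes of fetal donkey (Equus asinus) gonadal tissue in 2 single-cell RNA libraries. The set was a list of 30 named genes of 38517 features in the count tables: 27 were found by their symbol and 3 (CYP51A1, EBP and SCAP) through a locus identifier that RefSeq pairs with the symbol. The first library was gonad with mesonephros, the transient embryonic kidney beside it, at 4 weeks of gestation, and the second was tissue labelled ovary at 8 weeks. The labels name no sex, breed, agent or number of fetuses for either library, and their cell type entry reads germ cells although many cell types were present. Each stage was 1 library, so no test between stages was possible, and stage, dissected tissue and library cannot be told apart. All intervals below are at 95% and cover counting error alone, so the variation from animal to animal is not in them.

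Cells make cholesterol from acetyl-CoA through the mevalonate pathway, which runs by way of farnesyl diphosphate and squalene to lanosterol and then through a chain of sterol modifications to cholesterol. Fatty acids are built from the same acetyl-CoA. Many of these genes are targets of the SREBP transcription factors, which the escort protein SCAP carries to the Golgi when membrane sterol is low and which INSIG proteins hold back in the endoplasmic reticulum when it is high. Steroid-producing cells of the gonad use cholesterol as the starting material of androgens and obtain it by synthesis, by uptake of lipoprotein and from stored esters.

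The libraries held 8938 and 14593 cell barcodes with 122341903 and 155128130 UMIs (unique molecular identifiers, 1 for each RNA molecule caught), given here and throughout as the 4-week and then the 8-week value, and 38 barcode sequences occurred in both. Cells were sorted into classes by marker genes and are called "-like" for that reason, with 41.2% and 30.9% of the cells in no class. The class of interest was steroidogenic-like cells, 154 and 352 cells with medians of 23811.5 and 18731.5 UMIs. They carried CYP17A1, the enzyme of androgen precursors, at 14598 and 12926 CPM (the gene's UMIs in all cells of the class, per 1000000 UMIs of those cells), CYP11A1, which cleaves the cholesterol side chain, at 2878 and 2601 CPM, and the luteinizing hormone receptor LHCGR at 565 and 533 CPM. The Leydig cell hormone INSL3 stood at 161 and 3061 CPM. These genes are markers of the classes, so their high levels in part follow from how the cells were chosen. The marker HSD3B2 went the other way. It stood at 8.60 CPM in steroidogenic-like cells at 4 weeks and lower still at 8 weeks, against 447 and 201 CPM in Sertoli-like cells. CYP11A1 was also at 1129 CPM in mesonephric-tubule-like cells at 4 weeks. Against the ovary label, the 8-week library held 761 Sertoli-like cells with AMH, the Sertoli cell hormone, at 3842 CPM and 240 UMIs of the ovarian factor FOXL2 in all cells together, so it is called the library labelled ovary here. Stroma marker genes in the steroidogenic-like cells summed to 349 and 925 CPM, 5.88% and 15.3% of their level in stroma-like cells. Of classes that should lack them, macrophage-like cells held 87.5 and 1021 CPM and endothelial-like cells 108 and 414 CPM. The part of this RNA in the results was not tested.

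The set was far higher in steroidogenic-like cells than in any other class of either library. Its summed level was 20267 CPM (20121 to 20415) at 4 weeks and 14896 CPM (14811 to 14982) at 8 weeks. The next class was mesonephric-tubule-like cells with 2929 CPM at 4 weeks and Sertoli-like cells with 2739 CPM at 8 weeks, a 6.92-fold and a 5.44-fold lower level. Sertoli-like cells at 4 weeks held 2777 CPM. Podocyte-like cells (2292 CPM) and distal-tubule-like cells (1705 CPM) occurred only among the 4-week classes with at least 50 cells. Stroma-like, germ-cell-like and mural-like cells lay between 1182 and 1416 CPM, and endothelial-like, macrophage-like and erythroid-like cells between 754 and 1135 CPM. Over the other classes pooled, the steroidogenic-like level was 11.6-fold higher (11.5 to 11.7) at 4 weeks and 9.96-fold higher (9.89 to 10.04) at 8 weeks. Levels varied widely inside the class: the per-cell sum had a median of 21221 CPM at 4 weeks with 10% of cells under 9246 CPM, and a median of 11186 CPM at 8 weeks with 10% of cells under 4373 CPM and 10% over 26137 CPM. Outside it, the highest class median per cell was 2887 CPM, in mesonephric-tubule-like cells.

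**Figure D1:**
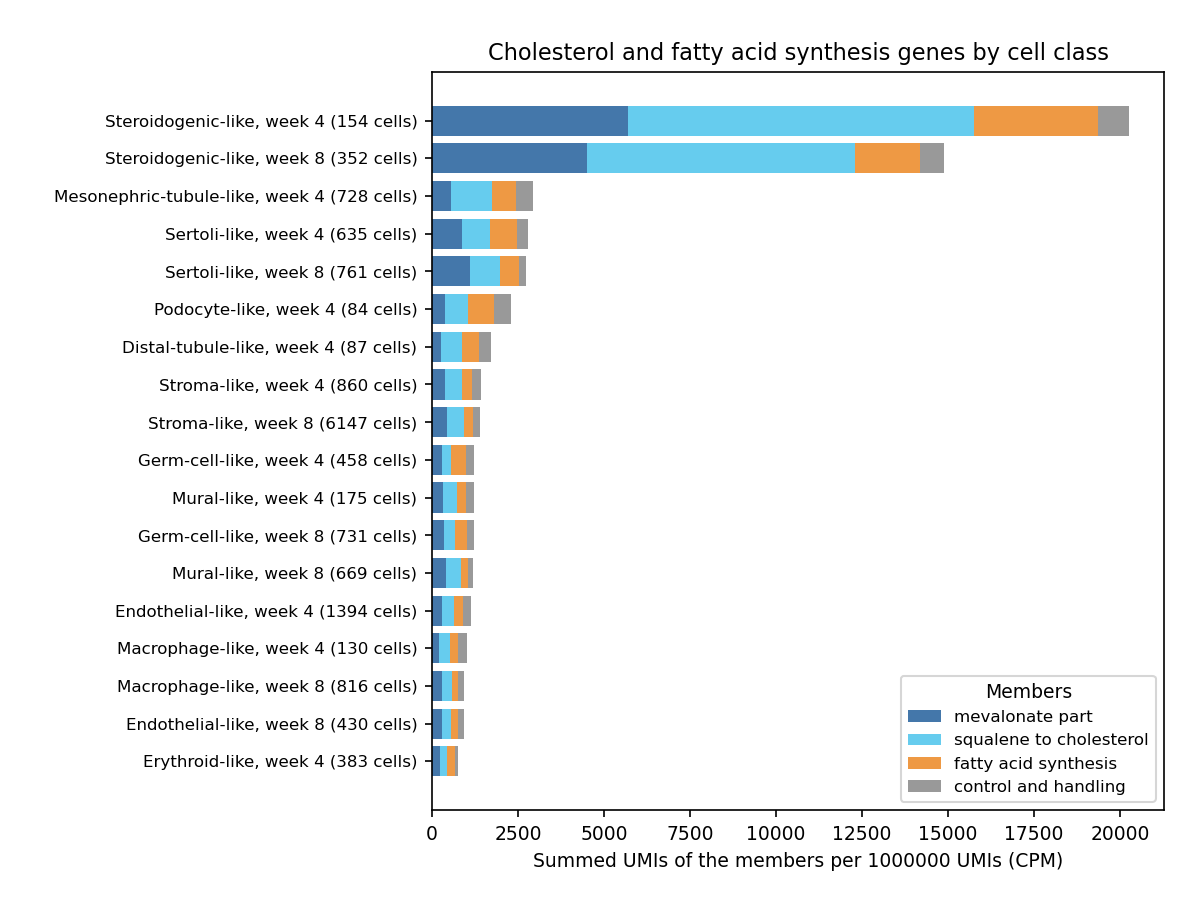
Summed level of the 30 genes in each cell class with at least 50 cells, in CPM on a linear axis, with bars stacked by pathway step and the number of cells in brackets. The 2 steroidogenic-like bars, at 20267 and 14896 CPM, stand apart from all others, which reach at most 2929 CPM.

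Most genes of the set shared this pattern. A gene was counted as higher where its level was at least 1.5-fold that of the other classes pooled and its counting interval left out 1. By that count 29 of 30 genes were higher in steroidogenic-like cells at 4 weeks and 28 of 30 at 8 weeks, beside 12.2% and 10.8% of all features. A level at least 4-fold higher was reached by 24 genes in each library, beside 3.01% and 2.98% of all features. No gene was 1.5-fold lower at 4 weeks and 1 was at 8 weeks (SOAT1), beside 34.8% and 40.1% of all features.

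The difference was greatest for the genes that lead from squalene to cholesterol. This group of 11 genes summed to 10054 and 7782 CPM, 18.4-fold (18.1 to 18.7) and 15.6-fold (15.4 to 15.8) the level of the other classes, and 11 of 11 were higher in each library. TM7SF2, a sterol C14 reductase, stood at 654 and 527 CPM against 10.1 and 5.86 CPM in the other classes, 64.9-fold (59.5 to 70.8) and 89.9-fold (82.8 to 97.7) higher. Outside the steroidogenic-like cells it was at 16.6 to 24.4 CPM in Sertoli-like and mesonephric epithelial classes and at 4.0 CPM or less in every other class. DHCR7, which catalyses the last reduction to cholesterol, stood at 963 and 488 CPM, 35.6-fold (33.6 to 37.7) and 17.8-fold (16.9 to 18.6) higher. MSMO1, the C4 methyl sterol oxidase, stood at 3663 and 3419 CPM, 31.9-fold (31.0 to 32.8) and 25.9-fold (25.4 to 26.4) higher. The lowest ratios of the group belonged to squalene epoxidase, SQLE, with 5.50-fold and 5.11-fold. SQLE was also at 194 CPM in mesonephric-tubule-like and 170 CPM in distal-tubule-like cells at 4 weeks, and at 109 CPM in Sertoli-like cells at 8 weeks.

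The 7 mevalonate genes summed to 5695 and 4519 CPM, 12.3-fold (12.1 to 12.5) and 8.98-fold (8.87 to 9.10) the other classes, and 7 of 7 were higher in each library. HMGCS1, the cytosolic HMG-CoA synthase, was 13.2-fold and 8.41-fold higher, and the mevalonate diphosphate decarboxylase MVD was 19.4-fold and 9.02-fold higher. FDPS, the farnesyl diphosphate synthase, stood at 2240 and 2213 CPM and had its next level in Sertoli-like cells, at 390 and 567 CPM. ACAT2, the cytosolic thiolase that starts the pathway, was at 37.4 to 116 CPM in every other class and at 537 and 465 CPM in steroidogenic-like cells.

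Fatty acid synthesis genes were less uniform. The 6 genes summed to 3614 and 1887 CPM, 7.92-fold (7.76 to 8.08) and 6.29-fold (6.17 to 6.41) the other classes. ACLY, which cuts citrate into cytosolic acetyl-CoA, was 16.6-fold and 11.3-fold higher, and ACSS2, which makes acetyl-CoA from acetate, was 26.9-fold and 15.7-fold higher. The 2 genes that supply acetyl-CoA thus stood further above the other classes than those that lengthen and desaturate the chain. FASN, the fatty acid synthase, was at 391 and 326 CPM in Sertoli-like cells and at 781 and 515 CPM in steroidogenic-like cells, a 1.999-fold and 1.58-fold difference. The acetyl-CoA carboxylase ACACA was only 1.95-fold (1.78 to 2.13) and 1.49-fold (1.38 to 1.60) above the other classes, the latter just under the 1.5-fold limit. For ELOVL6, the elongase of saturated fatty acids, the highest level was in podocyte-like cells at 4 weeks, 485 CPM against 186 CPM in steroidogenic-like cells, and in germ-cell-like cells at 8 weeks, 108 against 86.4 CPM.

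The control and handling genes differed least, with sums 3.22-fold (3.10 to 3.34) and 3.67-fold (3.56 to 3.78) the other classes. SREBF1 and SREBF2, the genes of the SREBP factors, stood at 19.4 and 18.4 CPM and at 171 and 106 CPM, 2.15-fold and 2.86-fold and 2.39-fold and 1.97-fold higher than in the other classes. SREBF1 at 4 weeks was close to its level in erythroid-like cells, 18.7 CPM. SCAP stood at 317 and 387 CPM, 6.59-fold and 7.51-fold higher, and INSIG1 at 219 and 123 CPM, 9.15-fold and 6.92-fold higher. STARD4, a cytosolic sterol carrier, was higher in mesonephric-tubule-like cells (188 CPM) than in steroidogenic-like cells (117 CPM) at 4 weeks. SOAT1, which esterifies cholesterol for storage, ran against the rest of the set. It stood at 60.8 and 32.4 CPM, ranked 9 of 11 and 7 of 7 classes, and its highest levels were in podocyte-like cells (244 CPM) at 4 weeks and macrophage-like cells (138 and 78.3 CPM).

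**Figure D2:**
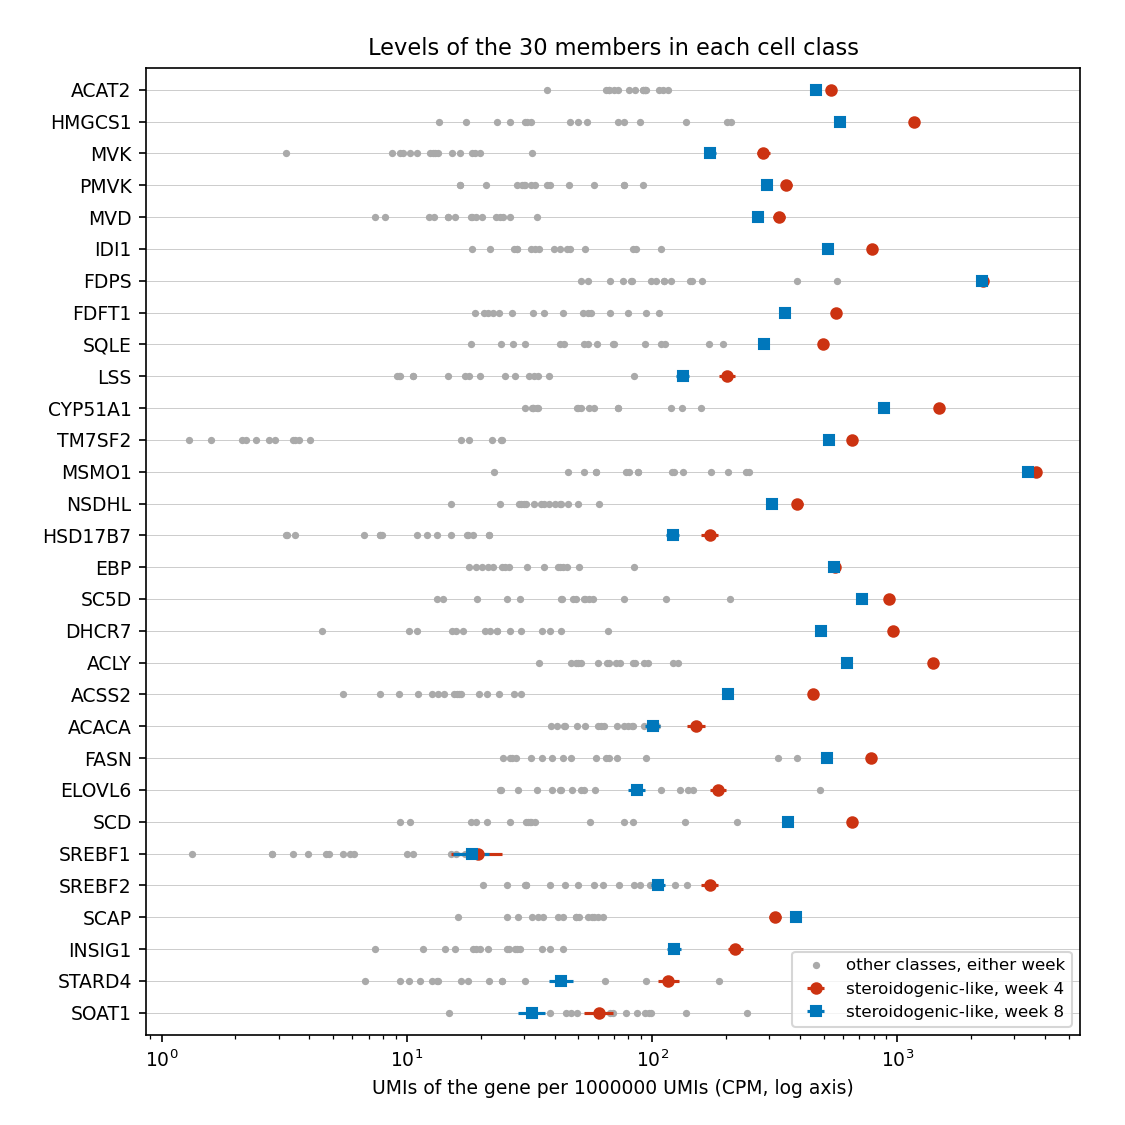
Level of each of the 30 genes in each cell class, in CPM on a log axis, with steroidogenic-like cells as coloured points with 95% counting intervals and the other classes of both libraries as grey points. The coloured points lie to the right of all grey points for most genes, and SOAT1, ELOVL6, SREBF1, STARD4, SREBF2 and ACACA have at least 1 coloured point among them.

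The share of cells with a UMI was compared with endothelial-like cells only, a class with a low summed level (1135 and 931 CPM). Each cell was thinned to 2000 UMIs, which left 149 and 305 steroidogenic-like cells (5 and 47 shallower cells left out) and 1338 and 361 endothelial-like cells (56 and 69 left out), whose median depths before thinning were 7563.5 and 5881.0 UMIs. MSMO1 was seen in 95.3% (90.6 to 98.1) and 86.9% (82.6 to 90.5) of steroidogenic-like cells and in 12.5% and 18.0% of endothelial-like cells. DHCR7 was seen in 82.6% and 52.8% against 1.94% and 3.60%, and TM7SF2 in 70.5% and 47.9% against 0.598% and 1.11%. Without thinning, MSMO1 was found in 100% and 97.2% of steroidogenic-like and 43.1% and 45.1% of endothelial-like cells, TM7SF2 in 95.5% and 76.4% and in 2.94% and 3.02%. SOAT1 was seen in 12.8% and 5.57% of thinned steroidogenic-like cells, below the 18.6% and 15.2% of endothelial-like cells.

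Levels across the 18 classes and libraries were compared with those of the other 29 genes summed, as a description of points that share libraries and, for the 2 steroidogenic-like points, most of the range. On log2 CPM with 1 added, Pearson's r was highest for CYP51A1 (0.98) and TM7SF2 (0.98) and lowest for SOAT1 (-0.11), ELOVL6 (0.34), SREBF1 (0.53) and STARD4 (0.59). Without the 2 steroidogenic-like points, r was 0.92 for HMGCS1 and TM7SF2, 0.91 for CYP51A1, 0.10 for ACAT2 and 0.09 for ACSS2. HMGCS1, TM7SF2 and CYP51A1 thus also followed the sum over the remaining classes, other genes from squalene to cholesterol less closely, such as EBP (0.46) and SC5D (0.64), and ACAT2 and ACSS2 hardly at all. Of 7977 features outside the set with at least 20 CPM on average, those with a pattern much like the sum included RDH11, LONP1, TSGA10IP, DKKL1, C4A, CYP39A1, MIF and LRCOL1, with r from 0.95 to 0.91. Without the 2 steroidogenic-like points, their r was 0.88 for RDH11, 0.79 for LONP1 and 0.77 for CYP39A1. It was 0.63 for DKKL1, C4A and MIF, 0.60 for TSGA10IP and 0.34 for LRCOL1.

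The set was lower in the steroidogenic-like cells of the library labelled ovary than in those of the 4-week library. The sum was 1.36-fold lower (1.35 to 1.37), a log2 ratio of -0.44. The median log2 ratio of the 30 genes was -0.60, beside -0.15 for all 14033 features with at least 20 UMIs in the 2 sums, a number that all 30 genes reached. Below 0 were 29 genes and above it 1 (SCAP). MSMO1 and FDPS, which were near level, gave 18.1% and 11.1% of the summed UMIs at 4 weeks and 23.0% and 14.9% at 8 weeks, and without them the log2 ratio of the sum was -0.63. At a 1.5-fold limit 18 of 30 genes were lower, beside 18.9% of all features, and 0 were higher, beside 10.3%. With cell clusters in place of marker limits, the cluster with steroidogenic markers held 180 and 682 cells at 19446 and 10414 CPM, and the log2 ratio of the sum was -0.90. In the cells with at least 20000 CPM of CYP17A1, 37 and 72 cells, the log2 ratio of the sum was -0.00046 and 9 genes were at least 1.5-fold lower, as described further on.

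Fatty acid synthesis genes were lower by the most. Of the 6 genes 6 were at least 1.5-fold lower, beside 18.9% of all features. Their median log2 ratio was -0.99, and their sum was 1.92-fold lower (1.87 to 1.96). ACLY stood at 1392 CPM at 4 weeks and 625 CPM at 8 weeks, 2.23-fold lower (2.14 to 2.32). ACSS2 stood at 453 and 203 CPM, also 2.23-fold lower (2.08 to 2.39). These are the enzymes that supply cytosolic acetyl-CoA. ELOVL6 was 2.15-fold lower (1.93 to 2.40), and SCD, the desaturase that makes oleate, went from 651 to 357 CPM, 1.82-fold lower (1.73 to 1.93). FASN was 1.52-fold lower (1.44 to 1.59) and ACACA 1.504-fold lower (1.35 to 1.68), both at the edge of the limit.

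In the mevalonate group 3 of 7 genes were at least 1.5-fold lower, beside 18.9% of all features. The median log2 ratio of the group was -0.29, beside -0.15 for all features. HMGCS1 went from 1167 to 582 CPM, 2.01-fold lower (1.92 to 2.09), the mevalonate kinase MVK from 284 to 173 CPM, 1.65-fold lower (1.52 to 1.79), and the isopentenyl diphosphate isomerase IDI1 from 785 to 523 CPM, 1.502-fold lower (1.43 to 1.58). FDPS was level within its interval, and ACAT2, PMVK and MVD were between 1.16-fold and 1.22-fold lower. Genes of successive steps of the pathway thus had different ratios.

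Of the 11 genes from squalene to cholesterol 5 were at least 1.5-fold lower, beside 18.9% of all features. Their median log2 ratio was -0.50. DHCR7 differed most, at 963 and 488 CPM, 1.97-fold lower (1.88 to 2.07). SQLE was 1.74-fold (1.63 to 1.85), the lanosterol demethylase CYP51A1 1.67-fold (1.61 to 1.73), the squalene synthase FDFT1 1.61-fold (1.52 to 1.71) and the lanosterol synthase LSS 1.51-fold lower (1.38 to 1.67). EBP, the sterol isomerase, stood at 557 and 550 CPM with an interval that held 1, and MSMO1 was 1.07-fold lower (1.05 to 1.09). TM7SF2, NSDHL, SC5D and HSD17B7, which act between lanosterol and the last steps, were between 1.24-fold and 1.42-fold lower.

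Of the 6 control and handling genes 4 were at least 1.5-fold lower, beside 18.9% of all features. STARD4 had the lowest ratio of the set, with 117 and 42.6 CPM, 2.74-fold lower (2.37 to 3.17). SOAT1 was 1.88-fold (1.56 to 2.26), INSIG1 1.78-fold (1.62 to 1.96) and SREBF2 1.62-fold lower (1.46 to 1.80). SREBF1 rested on 70 and 144 UMIs, and its interval (0.78 to 1.42, as a fold lower) held 1. SCAP was the exception, with 317 and 387 CPM and a log2 ratio of 0.28.

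**Figure D3:**
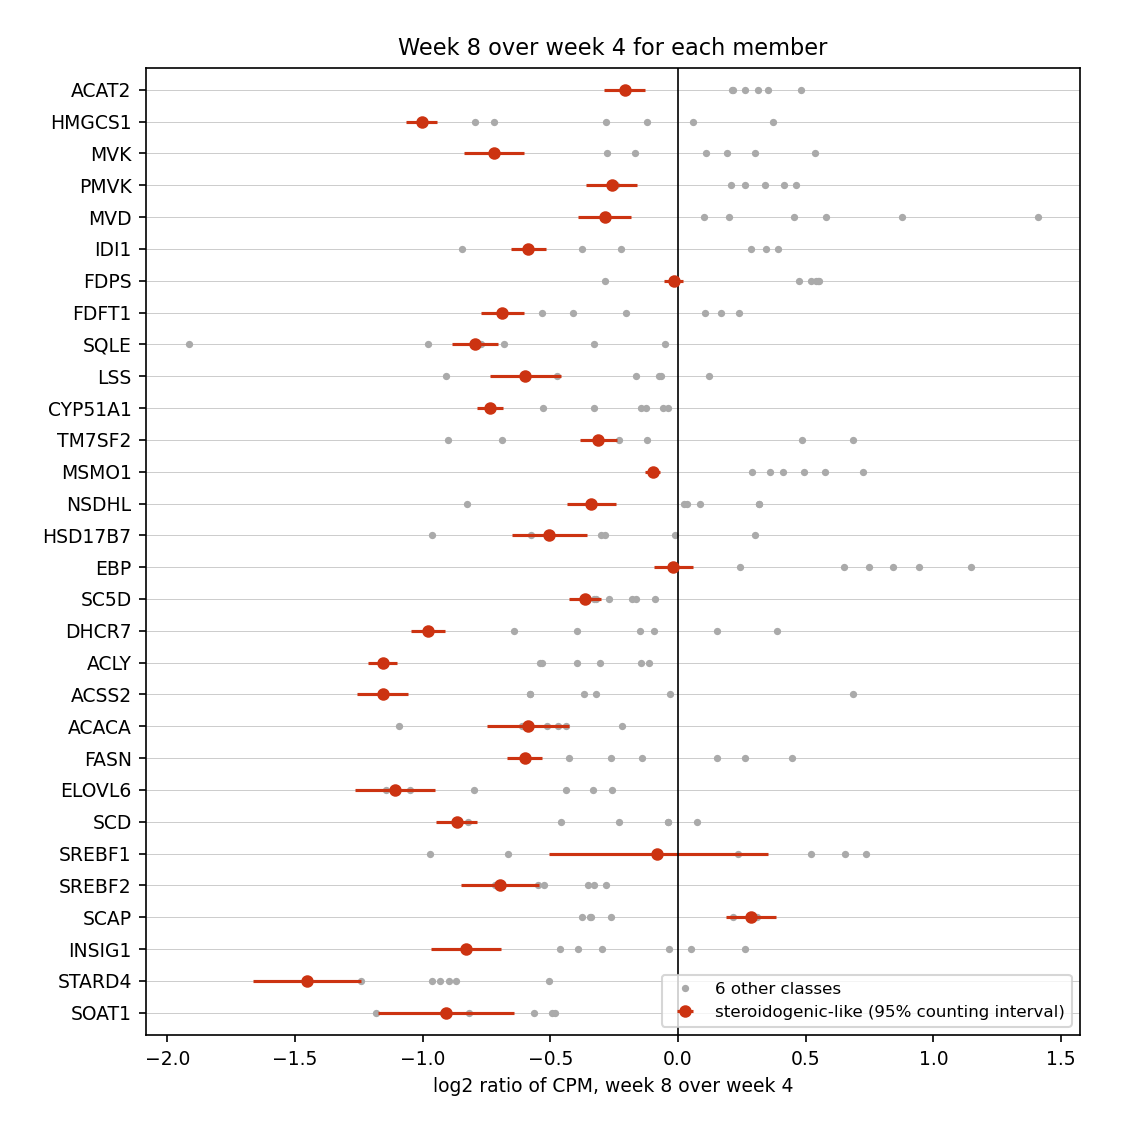
Log2 ratio of CPM at 8 weeks over 4 weeks for each gene, with steroidogenic-like cells in red with 95% counting intervals and the 6 other classes present in both libraries in grey. The red points lie left of 0 for all genes except SCAP, and left of all 6 grey points for 17 genes.

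In the 6 other classes found in both libraries the summed level differed less than in the whole steroidogenic-like class. Its log2 ratio was -0.02 in Sertoli-like, -0.02 in germ-cell-like, -0.03 in stroma-like, -0.04 in mural-like, -0.14 in macrophage-like and -0.28 in endothelial-like cells. With cell clusters, 2 further classes had enough cells, with log2 ratios of -0.63 (lymphoid-like) and -1.10 (erythroid-like) beside -0.90 in the steroidogenic cluster. The endothelial-like ratio also lay below that of the CYP17A1-rich steroidogenic-like cells. Genes at least 1.5-fold lower numbered 6 in Sertoli-like (20.1% of all features), 2 in germ-cell-like (17.7%), 3 in stroma-like (15.3%), 2 in mural-like (13.1%), 6 in macrophage-like (14.4%) and 7 in endothelial-like cells (15.5%). Genes at least 1.5-fold higher numbered 1, 2, 4, 1, 2 and 0 in the same classes (16.0%, 18.4%, 12.5%, 11.5%, 14.0% and 14.9%). In none of these classes was the count of lower genes as high as the 18 of the steroidogenic-like cells, and the counts of higher genes, as shares of the set, were below those of all features in Sertoli-like, germ-cell-like, mural-like, macrophage-like and endothelial-like cells. For 17 of the 30 genes the steroidogenic-like ratio was below that of all 6 other classes, and for 29 it was below their median, with a median log2 difference of -0.55. These differences between classes were not tested. The share of all features with such a position was not determined. The median log2 ratio of all features was itself lowest in steroidogenic-like cells, at -0.15, and lay between -0.10 and -0.0067 in the other classes.

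Several genes kept a direction across classes. In all 6 other classes ACAT2, MVD, MSMO1 and EBP had a log2 ratio above 0, whereas in steroidogenic-like cells the ratios were -0.21, -0.29, -0.10 and -0.02. EBP was at least 1.5-fold higher in 5 of those classes, for example 19.1 and 42.3 CPM in stroma-like cells. Below 0 in all 6 were 9 genes, among them STARD4 (-0.51 to -1.24), ACLY (-0.11 to -0.54), SQLE (-0.05 to -1.92) and SOAT1 (-0.48 to -1.18). The fatty acid genes summed to less at 8 weeks in each of the 6 classes as well, with log2 ratios of -0.13 in stroma-like, -0.27 in germ-cell-like, -0.31 in endothelial-like, -0.40 in mural-like, -0.44 in macrophage-like and -0.51 in Sertoli-like cells, beside -0.94 in steroidogenic-like cells. STARD4 and SOAT1 had intervals below 1 in every class compared, except STARD4 in mural-like cells, on 26 and 104 UMIs. The lowest value in any class was SQLE in endothelial-like cells, 69.3 and 18.3 CPM, 3.80-fold lower. In clusters, most endothelial-like cells of the 4-week library fell into cluster 5 (1222 and 2 cells) and most of the 8-week library into cluster 14 (230 and 530 cells).

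Within the steroidogenic-like class the set followed the cell's level of CYP17A1, a marker that helped to define the class. At 8 weeks the summed level was 5897 CPM in 59 cells under 2500 CPM of CYP17A1, 6954 CPM in 96 cells from 2500 to 5000, 10967 CPM in 62 cells from 5000 to 10000, 17438 CPM in 63 cells from 10000 to 20000 and 26126 CPM in 72 cells at 20000 or more. At 4 weeks the cells over 10000 CPM of CYP17A1 made up most of the class, with 22092 CPM in 83 cells and 26135 CPM in 37 cells. The lower bins held 3, 16 and 15 cells at 4 weeks, with 7416, 7244 and 15693 CPM. In both libraries the most CYP17A1-rich cells therefore had the highest summed level, and the 8-week class held more cells with little CYP17A1. INSL3 also counted toward the limit of the class, and without INSL3 the class held 154 and 313 cells in place of 154 and 352. The part of INSL3 in the spread over the bins was not tested. These bins are ranges of a continuous level, not cell types. At 8 weeks the median depth of the cells rose over the same bins, with 12309, 15647, 18782, 25660 and 33324.5 UMIs. At 4 weeks it lay between 20457 and 24351 UMIs. The part of depth in the pattern was not tested. By INSL3, in cells with at least 10000 UMIs at 8 weeks, the sum was 15320 CPM in 89 cells under 1000 CPM, 14295 CPM in 119 cells from 1000 to 5000 and 16181 CPM in 52 cells above that, so it did not follow INSL3 in the same way.

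**Figure D4:**
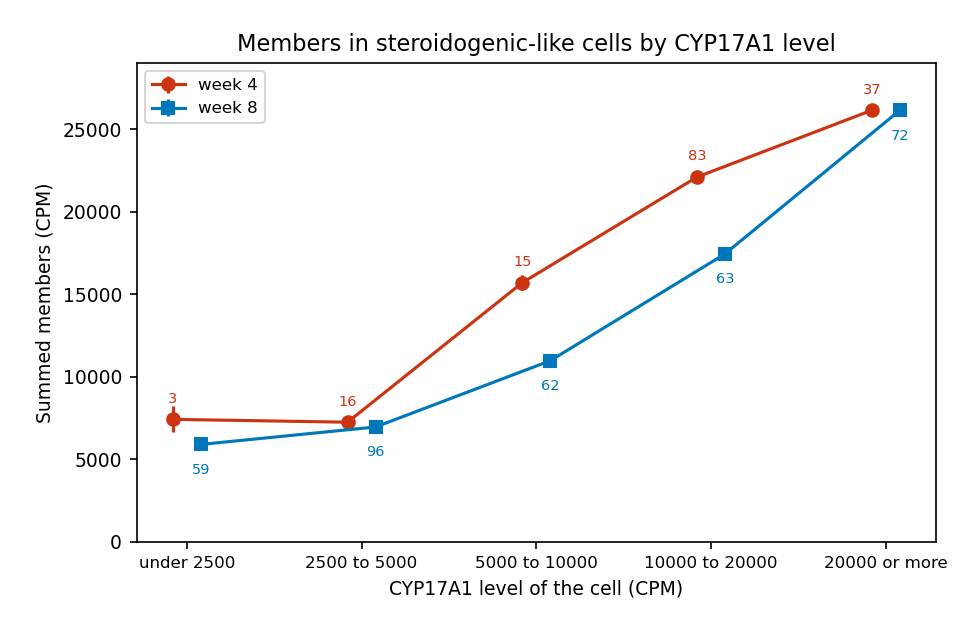
Summed level of the 30 genes in steroidogenic-like cells, in CPM, over bins of the cells' own CYP17A1 level, with 95% counting intervals and the number of cells at each point. The sum reaches 26135 and 26126 CPM in the highest bin, and the 8-week points lie below the 4-week points in every bin under 20000 CPM. The lowest bin holds 3 cells at 4 weeks.

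The ratio of 8 over 4 weeks differed between the bins. In cells from 10000 to 20000 CPM of CYP17A1, where the CYP17A1 levels themselves were 15008 and 15141 CPM, the sum was 1.27-fold lower at 8 weeks (1.25 to 1.29), and 14 of 30 genes were at least 1.5-fold lower beside 14.3% of all features and 0 higher beside 9.06%. From 5000 to 10000 CPM, with 15 cells at 4 weeks, the sum was 1.43-fold lower (1.39 to 1.48), with 16 genes lower beside 19.4% of features and 0 higher beside 9.81%. From 2500 to 5000 CPM, with 16 cells at 4 weeks, it was 1.04-fold lower (1.003 to 1.08), with 6 genes lower beside 22.4% and 3 higher beside 10.5%. At 20000 CPM or more, where CYP17A1 itself stood at 23417 and 27807 CPM and was not matched, the sum was level (ratio 1.00, 0.984 to 1.02), with 9 genes lower beside 22.5% and 0 higher beside 8.89%. Depth was not matched there either, with medians of 21455 and 33324.5 UMIs. The sum was thus lower at 8 weeks in the middle bins and close to level in the outer of these 4. Under 2500 CPM, with 3 cells at 4 weeks, it stood at 7416 CPM (6678 to 8214) and 5897 CPM (5739 to 6058).

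The ratios of the sterol gene groups differed between the bins, and single genes did not all go the same way. The genes from squalene to cholesterol were 1.49-fold lower from 5000 to 10000 CPM, 1.20-fold lower from 10000 to 20000 CPM, and in the highest bin stood at 13424 and 15014 CPM (ratio 1.12). The mevalonate genes were 1.23-fold and 1.16-fold lower in the middle bins. In the highest bin they stood at 7455 and 7574 CPM (ratio 1.02, 0.986 to 1.05). From 2500 to 5000 CPM the mevalonate ratio was 1.19 (1.10 to 1.27) and that of the genes from squalene to cholesterol 0.97 (0.92 to 1.03). In the highest bin MSMO1 went from 5227 to 7374 CPM (ratio 1.41), FDPS from 3105 to 3802 CPM (1.22) and EBP from 767 to 1004 CPM (1.31). Of the other genes from squalene to cholesterol, TM7SF2 (1.27) and SC5D (1.07) also had ratios above 1 there. SQLE (0.60), LSS (0.69), DHCR7 (0.73), FDFT1 (0.77), CYP51A1 (0.81), HSD17B7 (0.82) and NSDHL (0.95) had ratios below 1. The intervals of SC5D and NSDHL held 1. The fatty acid genes summed to less at 8 weeks in the highest bin too, 4345 and 2892 CPM, 1.503-fold lower (1.44 to 1.57). This held in each of the 4 bins from 2500 CPM upwards, with the fatty acid sum 1.54-fold, 1.87-fold, 1.79-fold and 1.503-fold lower in order of rising CYP17A1. ACLY was 1.77-fold lower in the highest bin (1699 and 962 CPM), SCD 1.72-fold (822 and 477 CPM), ELOVL6 2.12-fold, HMGCS1 1.71-fold and STARD4 2.07-fold lower. FASN was an exception among the fatty acid genes, at 981 and 909 CPM.

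Neighbouring pathway genes outside the set were read in the same cells. Of 12 other synthesis genes 5 were at least 1.5-fold lower at 8 weeks and 0 higher, beside 18.9% and 10.3% of all features. Their median log2 ratio was -0.56, beside -0.15 for all features. The elongase ELOVL5, the very-long-chain reductase HSD17B12 and the malic enzyme ME1, which supplies NADPH, were 1.94-fold, 1.94-fold and 1.61-fold lower, and the nuclear envelope gene LBR stood at 23.9 and 15.2 CPM. Of 8 SREBP control genes 0 were called in either direction, beside those same shares, with a median of -0.25. Among 12 genes of cholesterol uptake and transport 3 were lower and 0 higher, with a median of -0.10, beside 18.9% of all features lower and 10.3% higher. The high-density lipoprotein receptor SCARB1 went from 728 to 395 CPM, 1.84-fold lower (1.75 to 1.94), and the lysosomal cholesterol exporter NPC1 went from 43.8 to 27.0 CPM, whereas the mitochondrial membrane protein TSPO stood at 196 and 239 CPM. The count of this list was close to the share of all features.

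Lipid droplet genes went partly the other way, with 3 higher and 2 lower of 7 tested and a median log2 ratio of 0.50, beside the same 18.9% and 10.3% of all features lower and higher. This was not particular to the class. The median of the list was also above 0 in the 6 other classes, from 0.02 in macrophage-like to 0.57 in stroma-like cells. In steroidogenic-like cells the droplet coat gene PLIN2 stood at 34.4 and 55.8 CPM (log2 ratio 0.69) and the droplet protein gene HILPDA at 33.3 and 59.5 CPM (0.83). The third higher gene, DGAT2, rested on 3 and 23 UMIs. LPIN1, which makes diacylglycerol, was 1.82-fold lower, and the hormone-sensitive lipase LIPE stood at 28.0 and 16.7 CPM. Of 10 genes of steroid synthesis 2 were lower and 1 higher, with a median of -0.12, which is near those same shares. STAR, which carries cholesterol into the mitochondrion, went from 2585 to 1390 CPM, 1.86-fold lower (1.81 to 1.91). POR, the reductase that passes electrons to CYP17A1 and to sterol enzymes, went from 426 to 178 CPM, 2.39-fold lower (2.22 to 2.57). The higher gene was HSD17B3, which makes testosterone, on 15 and 68 UMIs. HSD17B3 is also on the marker list of Sertoli-like cells. AMH, another gene of that list, stood at 45.5 and 83.1 CPM in the steroidogenic-like cells. The part of stray Sertoli cell RNA in these values was not tested. The mitochondrial reductase FDXR stood at 401 and 582 CPM (log2 ratio 0.53). CYP17A1 and CYP11A1 themselves had log2 ratios of -0.18 and -0.15, near the -0.15 of all features.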

How the data were processed

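Per the labels' protocols, tissue was digested with collagenase and DNase, and droplet libraries were made with a DNBelab C kit. The barcodes have the form of 10x Genomics chemistry. The deposited values are UMI counts per gene and barcode, not normalized. Per the file headers the software was Cell Ranger 7.1.0, whereas the submitters' processing notes give version 2.1.1. For the genome build, the annotation and the treatment of intronic or multiply mapped reads, the entry is: not given in the sources used here. Hence reads shared with near-identical gene copies cannot be judged. The tables were matched to RefSeq symbols for 768 locus identifiers.

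Barcodes under 200 genes were removed (26 and 3). Cells were assigned to 13 classes by the UMIs of marker lists per 10000 UMIs, with at least 3 markers detected. Limits were 10 (germ cell, lymphoid, distal tubule, coelomic), 20 (Sertoli, endothelial, macrophage, erythroid, mural, mesonephric tubule, podocyte) and 40 (steroidogenic, stroma), and were set after the data had been seen. Within 25% of the steroidogenic limit lay 104 and 127 cells below it and 6 and 36 above it. Cells meeting the limits of several classes (97 and 80) were left out, and no doublet caller was run. Classes needed 50 cells, which left 11 and 7. UMIs were summed per class and given as CPM, with exact Poisson intervals for levels, exact conditional binomial intervals for ratios and Clopper-Pearson intervals for shares, all at 95% and all for counting error only. Log2 ratios have 0.5 UMI added to each sum. The interval code was tested on simulated data.

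All 30 genes were open to naming. From each other list up to 4 genes with the largest absolute log2 ratio and at least 50 CPM could be named, and the 10 features most like the sum. Some genes that this rule names are not reported here. CYP11A1, CYP17A1, LHCGR, INSL3, HSD3B2 and AMH are named as markers of the classes. FOXL2, which is on no marker list, is named as an ovarian factor. LBR, NPC1, DGAT2, LIPE and HSD17B3 were added after their values were seen. The genes and lists were chosen with earlier results of these data known. Alternatives were other marker limits, Leiden clusters (2000 variable genes without the set, 30 components, 20 neighbours, resolution 1, scanpy 1.11.5), other cell filters, weights and scalings. Statistics used scipy 1.17.1.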

Additional observations from a re-analysis of the deposited data

Results flagged for a closer look

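For 12 genes of the set, the log2 ratio of 8 over 4 weeks in at least 1 other class went against the ratio in steroidogenic-like cells, with the counting intervals on opposite sides of 0, in 29 pairs of gene and class. With 1 library per stage these differences between classes were not tested, and their intervals cover counting error only. The share of all features that meet the same rule was not determined, so the counts cannot be read as particular to the set.

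Among the mevalonate genes, ACAT2 stood at -0.21 in steroidogenic-like cells and above 0 in all 6 other classes: 0.35 in Sertoli-like, 0.26 in germ-cell-like, 0.21 in endothelial-like, 0.48 in macrophage-like, 0.21 in stroma-like and 0.31 in mural-like cells. MVK stood at 0.53 in stroma-like and -0.72 in steroidogenic-like cells. PMVK, the phosphomevalonate kinase, stood at 0.26 in Sertoli-like, 0.41 in endothelial-like and 0.21 in stroma-like cells and at -0.26 in steroidogenic-like cells. For MVD the values were 1.41 in macrophage-like (8.17 and 23.1 CPM), 0.88 in stroma-like, 0.45 in germ-cell-like and -0.29 in steroidogenic-like cells. IDI1 stood at 0.34 in Sertoli-like, 0.39 in germ-cell-like and -0.59 in steroidogenic-like cells.

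Of the genes from squalene to cholesterol, MSMO1 stood at -0.10 in steroidogenic-like cells against 0.29 in Sertoli-like, 0.72 in germ-cell-like, 0.41 in endothelial-like, 0.49 in stroma-like and 0.58 in mural-like cells. NSDHL stood at 0.32 in Sertoli-like and 0.32 in germ-cell-like cells against -0.34. HSD17B7 stood at 0.30 in Sertoli-like cells against -0.50, DHCR7 at 0.39 in germ-cell-like cells against -0.98, and TM7SF2 at 0.68 in stroma-like cells (2.21 and 3.65 CPM) against -0.31. FASN stood at 0.45 in stroma-like cells against -0.60. SCAP went the opposite way, with 0.28 in steroidogenic-like cells against -0.26 in Sertoli-like, -0.37 in germ-cell-like and -0.34 in endothelial-like cells.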

How the results depend on the processing

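No paired analysis was possible because each stage is 1 library. Steroidogenic-like cells held the highest summed level in both libraries under every alternative listed here. The alternatives are given as the summed level at 4 and 8 weeks, its ratio to the other classes at 4 and 8 weeks, and the log2 ratio of 8 over 4 weeks, beside 20267 and 14896 CPM, 11.6 and 9.96, and -0.44. Marker limits 2 times higher gave 21813 and 17772 CPM, 11.9 and 10.6, and -0.30. Limits 2 times lower gave 20250 and 12438 CPM, 11.7 and 8.54, and -0.70. Leiden clusters gave 19446 and 10414 CPM, 10.5 and 6.92, and -0.90. The mean of per-cell CPM gave 21308 and 13895 CPM, 12.8 and 9.73, and -0.62. Scaling without ribosomal, haemoglobin and steroidogenic marker genes gave 25333 and 19032 CPM, 12.2 and 10.4, and -0.41. The remaining alternatives were chosen after seeing the data, and the cause of the shifts was not tested. Limits without INSL3 gave 15853 CPM, 10.6 and -0.35 with no change at 4 weeks. The 27 genes listed by symbol gave 17919 and 13075 CPM, 11.3 and 9.79, and -0.45. Cells with at most 40000 UMIs gave 21677 and 13954 CPM, 12.4 and 9.33, and -0.64. Leaving out cells that also met the stroma limit gave 20325 and 15187 CPM, 11.6 and 10.2, and -0.42. Cells with at least 20000 CPM of CYP17A1 gave 26135 and 26126 CPM, 15.0 and 17.5, and -0.00046, and without MSMO1 and FDPS the log2 ratio was -0.63. The median log2 ratio of the genes, -0.60, became -0.92 with Leiden clusters and -0.32 in the CYP17A1-rich cells. The count of genes at least 1.5-fold lower, 18, became 9 in the CYP17A1-rich cells and lay between 13 and 25 elsewhere, and the count of higher genes was 0 throughout. MSMO1 turned to 0.088 with higher limits, 0.016 without INSL3 and 0.50 in the CYP17A1-rich cells. In the latter ACAT2 (0.12), PMVK (0.20), MVD (0.25), TM7SF2 (0.35) and SC5D (0.094) also turned above 0, as did FDPS (0.29), EBP (0.39) and SREBF1 (0.70), whose intervals had held 0, and SCAP (-0.084) below it. Of the 30 genes 20 were lower at 8 weeks in each alternative. The share of cells with an MSMO1 UMI was 87.4% and 76.2% in steroidogenic-like and 5.88% and 10.6% in endothelial-like cells at 1000 UMIs, and 100%, 97.2%, 43.1% and 45.1% without thinning. Depth limits the low genes most: SREBF1 had 70 and 144 UMIs in the class.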
